A study of Homo sapiens with 18 samples.

Results

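AXIN2, SP5, LEF1, TCF7, NKD1, NOTUM, RNF43, ZNRF3 and LGR5 are targets or feedback regulators of WNT signalling, and their levels were followed through the regional patterning of human neural ectoderm in culture. The 9 genes were chosen by name, with no measured value in the rule, out of 37550 rows of the expression table. All 9 passed the filter for testing, a level of at least 1 TPM in at least 2 libraries, which left 17033 genes. TPM gives the share of each gene among the transcripts of a library, corrected for transcript length and scaled to the same total in every library. LGR5 reached 1 TPM only in the pNE_M libraries, and NOTUM only in aNE_M, pNE_M and 1 library of pNE_H, so these genes could enter the test only because they were high there. RNF43 reached 1 TPM only in the midbrain-medium and hindbrain-medium libraries. It too entered the test only through the media in which it was high.

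The study took the wild-type human pluripotent stem cell line H1 from the undifferentiated state (hPSC, day 0) to anterior neural ectoderm (aNE) or posterior neural ectoderm (pNE) at day 2, and then to day 4 in a medium for forebrain (aNE_T, pNE_T), midbrain (aNE_M, pNE_M) or hindbrain (aNE_H, pNE_H). Each of the 9 groups had 2 biological replicates, and all groups came from this 1 line. On day 1 all differentiating cells received A8301 at 1 µM, trametinib at 250 nM, the porcupine inhibitor C59 at 1 µM and LDN193189 at 100 nM. On day 2 cells bound for aNE received A8301, LDN193189 and C59 at these doses, and cells bound for pNE received A8301 and LDN193189 at these doses, the tankyrase inhibitor XAV939 at 1 µM, FGF2 at 20 ng/mL and TTNPB, a retinoid, at 50 nM. Thiazovivin was in both day-2 media to help cells survive passaging. On day 3 the forebrain medium held XAV939 at 1 µM, LDN193189 at 100 nM and FGF2 at 20 ng/mL. The agents in the midbrain and hindbrain media are not used here. The plating density was 37500 cells per cm2 for collection at day 2. Those carried on to day 4 were plated at 75000 per cm2 for aNE and 150000 per cm2 for pNE, so that origin and density cannot be told apart at day 4.

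WNT ligands bind Frizzled and LRP receptors at the cell surface, which stops the destruction of beta-catenin. Beta-catenin then enters the nucleus and activates genes through the TCF/LEF family of DNA-binding proteins. Several of the activated genes act back on the pathway, and graded WNT signalling is known to help set the front-to-back axis of the early neural plate. C59 blocks the secretion of WNT ligands, and XAV939 stabilises AXIN proteins and thereby promotes the destruction of beta-catenin. All groups but hPSC had therefore been exposed to at least 1 agent that lowers WNT signalling.

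The members fall into 3 roles. AXIN2, a scaffold of the complex that destroys beta-catenin, and NKD1, which binds Dishevelled, act inside the cell on the signal. SP5, a zinc-finger repressor, and LEF1 and TCF7, DNA-binding partners of beta-catenin, act in the nucleus. NOTUM, a secreted enzyme that removes the lipid of WNT ligands, RNF43 and ZNRF3, membrane ubiquitin ligases that clear Frizzled receptors, and LGR5, a receptor for R-spondins that shields those receptors, act at the cell surface. In GRCh38 with GENCODE 29 annotation, AXIN2 lies at chr17:65528563-65561647, NKD1 at chr16:50548330-50649249, SP5 at chr2:170715351-170718078, LEF1 at chr4:108047545-108168956, TCF7 at chr5:134114711-134151865, NOTUM at chr17:81952507-81961840, RNF43 at chr17:58352500-58417595, ZNRF3 at chr22:28883592-29057487 and LGR5 at chr12:71439770-71586310.

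Promoter windows of 250 bases before to 50 bases after an annotated start were available from RefSeq (GRCh38.p14) for 4 of the 9 members, as 6 windows: 1 each for SP5 and LEF1 and 2 each for TCF7 and RNF43. AXIN2, NKD1, NOTUM, ZNRF3 and LGR5 had no entry. The windows were searched on both strands for CTTTGA and CTTTGT, short cores of the sequence that TCF/LEF proteins recognise. The motifs differ in their last base, so the same letters cannot match both on the same strand. At least 1 of them was present in 26.2% of all 35116 windows, 12.9% with CTTTGA and 16.1% with CTTTGT, and in 4 of the 6 member windows. SP5 held 4 matches, at 157, 147, 109 and 83 bases before its start, a number reached by 0.111% of all windows. A window of TCF7 at an internal start held 2 matches, at 217 and 49 bases before the start, a number reached by 5.33% of all windows, and each window of RNF43 held 1. The upstream bases of SP5, TCF7 and RNF43 are shown because windows of these 3 genes held a match. The other RNF43 window, which also held a match, is not shown. Capitals mark the matches, and letters run 5′ to 3′ on the strand of the gene. SP5 is from chr2:170715087-170715336 on the plus strand, TCF7 from chr5:134123368-134123617 on the plus strand and RNF43 from chr17:58417596-58417784 on the minus strand, where the part of the window in an exon was left out.
SP5: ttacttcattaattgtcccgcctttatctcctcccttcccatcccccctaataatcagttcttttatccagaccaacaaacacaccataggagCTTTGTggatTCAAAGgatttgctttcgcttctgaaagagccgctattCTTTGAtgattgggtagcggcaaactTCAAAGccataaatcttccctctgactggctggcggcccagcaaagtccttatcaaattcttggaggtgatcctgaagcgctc
TCF7: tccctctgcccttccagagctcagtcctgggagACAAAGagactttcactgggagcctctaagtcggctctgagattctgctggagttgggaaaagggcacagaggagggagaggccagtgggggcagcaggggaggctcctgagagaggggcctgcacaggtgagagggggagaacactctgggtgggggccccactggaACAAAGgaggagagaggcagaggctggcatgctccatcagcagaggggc
RNF43: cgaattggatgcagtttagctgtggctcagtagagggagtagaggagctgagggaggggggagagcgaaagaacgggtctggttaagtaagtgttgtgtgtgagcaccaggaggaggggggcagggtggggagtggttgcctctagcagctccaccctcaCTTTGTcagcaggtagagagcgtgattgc
A match is a description of these letters and not a measured binding site. The other windows, of LEF1 and of TCF7, held neither motif, which says only that these letters are not in those 300 bases.

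Each library listed 19239 to 21235 genes with a value above 0, and since TPM carries no read number, sequencing depth is unknown. Whether the quantification used strand is not given in the sources used here, so reads of members and of genes annotated over them could be mixed. TCF7 overlaps SKP1 on the opposite strand, which was at 246 to 373 TPM, and RNF43 overlaps SUPT4H1 on its own strand, which was at 103 to 148 TPM. LEF1 and ZNRF3 overlap the antisense genes LEF1-AS1 and ZNRF3-AS1. The 8 pluripotency markers summed to 4688 to 4719 TPM in hPSC and to at most 583 TPM in any other library, and the 7 forebrain markers to 928 to 977 TPM in aNE_T but 42.5 to 46.4 TPM in pNE_T. In bulk RNA, fewer cells of a type and less RNA per cell cannot be told apart, and this holds for all of the values that follow. Differences are log2 fold changes on the log2(TPM + 1) scale with limma's standard error (SE) and a p adjusted over all 17033 genes, and a gene was called where the adjusted p was under 0.05 and the change at least 1. With 2 libraries a group, an exact permutation test of 1 comparison cannot go below p = 0.333, so the tests rest on the spread shared by all 18 libraries.

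**Figure D1:**
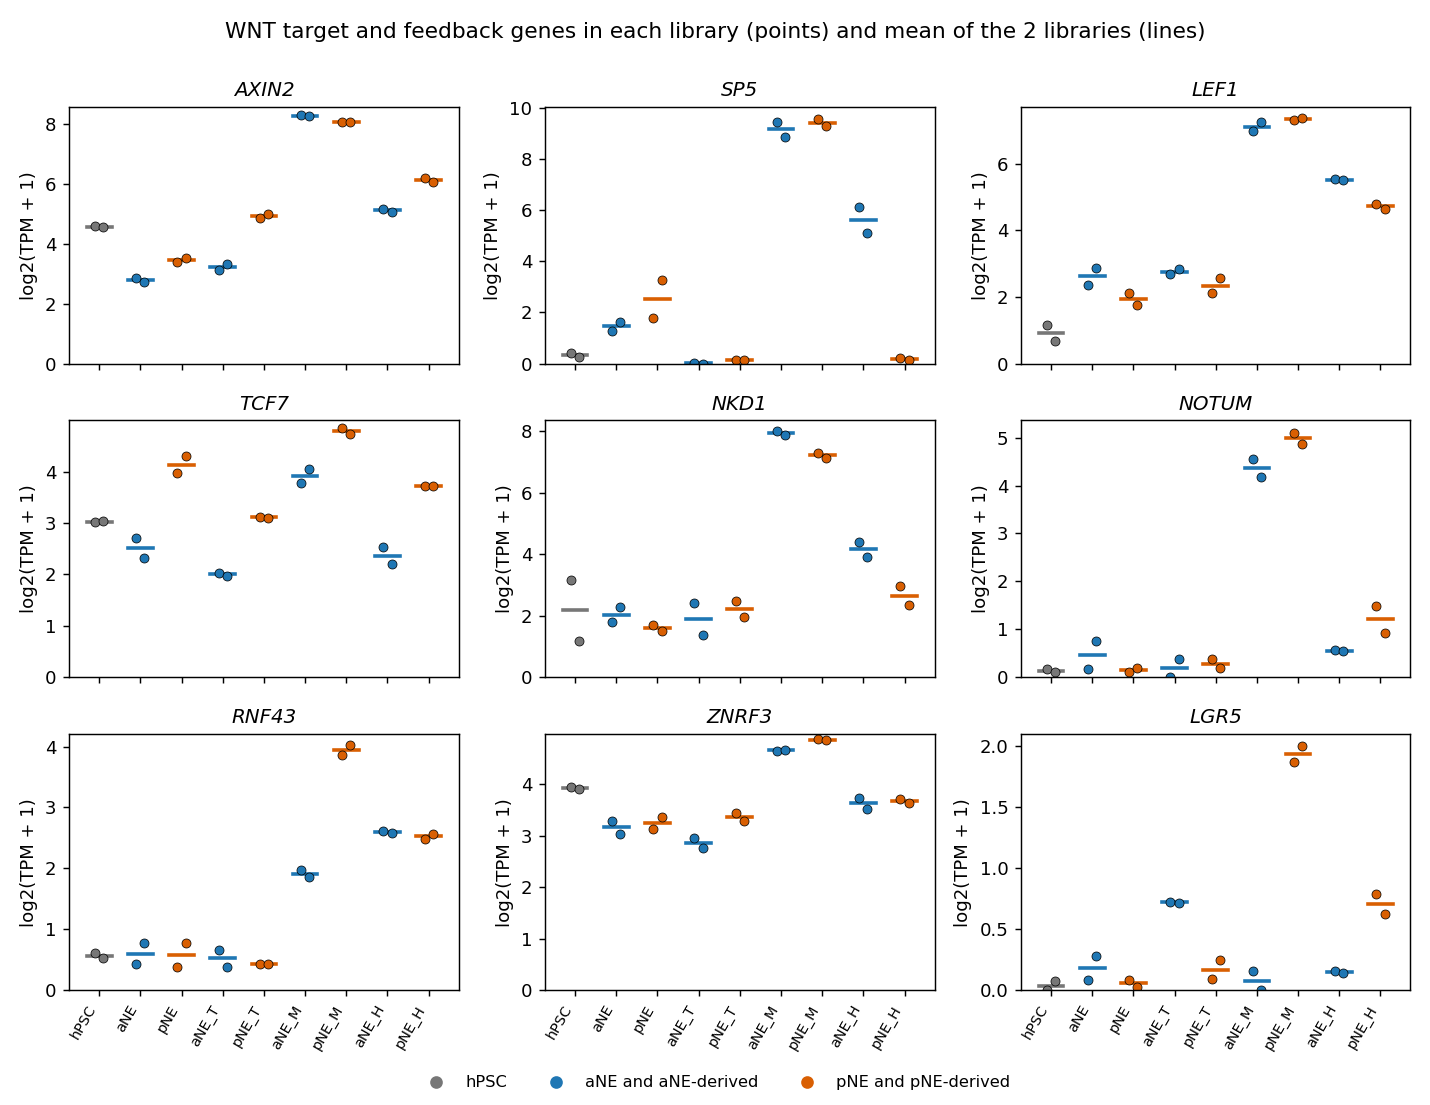
Level of each of the 9 genes as log2(TPM + 1) on the vertical axis, with the 9 groups along the horizontal axis, 1 point per library and a line at the mean of each group. The 4 libraries of midbrain medium lie above all other 14 for AXIN2, SP5, LEF1, NKD1, NOTUM and ZNRF3, whereas RNF43, LGR5 and TCF7 are highest in pNE_M and have aNE_M libraries within or below the range of other groups.

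The midbrain medium gave the highest levels of most members. In 6 of 9 genes, AXIN2, SP5, LEF1, NKD1, NOTUM and ZNRF3, all 4 libraries of midbrain medium lay above all 14 other libraries. The summed level of the 9 genes was 1232 to 1465 TPM in aNE_M and 1295 to 1449 TPM in pNE_M. It was 26.6 to 28.6 TPM in aNE_T, 54.2 to 56.1 TPM in pNE_T, and 29.1 to 54.9 TPM over the day-2 and hPSC libraries.

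Against the forebrain medium, 8 of 9 members were called higher in aNE_M, where 3.50% of all tested genes were, and 9 of 9 in pNE_M, where 3.31% were. The members' median difference was 4.18 in aNE-derived cells, beside -0.04 for all tested genes, and 3.51 in pNE-derived cells, beside -0.03. LGR5 was the member not called higher in aNE_M. Since LGR5 and NOTUM entered the test through these groups, their calls add nothing to the count. RNF43 entered the test only through the midbrain and hindbrain media, so its calls add nothing either. The medians take in these genes too. The median was the value of NOTUM in aNE-derived and of RNF43 in pNE-derived cells, so the medians are a description only. LGR5 fell out of the test when either pNE_M library was left out, and the pNE_M count was then 8.

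The intracellular feedback genes AXIN2 and NKD1 rose in both origins. AXIN2 was at 7.80 and 9.09 TPM in the aNE_T libraries and at 315 and 312 TPM in aNE_M. It was at 28.0 and 31.1 TPM in pNE_T and at 272 and 268 TPM in pNE_M. The libraries of each pair of groups were far apart, and the starting level was higher in pNE_T than in aNE_T. AXIN2 thus rose by 5.06 ± 0.09 (SE, limma, adjusted p = 7.42e-13) in aNE-derived and by 3.15 ± 0.09 (SE, limma, adjusted p = 9.1e-11) in pNE-derived cells.

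NKD1 was at 4.28 and 1.55 TPM in aNE_T and at 256 and 235 TPM in aNE_M. In pNE-derived cells it was at 4.49 and 2.86 TPM in the forebrain medium and at 156 and 139 TPM in the midbrain medium. NKD1 replicates were less alike, in proportion, at low levels than at high ones, but no library of the forebrain medium came near one of the midbrain medium. The rise was 6.07 ± 0.50 (SE, limma, adjusted p = 9.28e-07) in aNE-derived and 5.01 ± 0.50 (SE, limma, adjusted p = 7.04e-06) in pNE-derived cells.

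Of the nuclear members, SP5 went from near 0 to the highest level of the 9 genes. Its aNE_T libraries were at 0.0243 and 0 TPM and its aNE_M libraries at 706 and 473 TPM. In pNE_T it was at 0.0895 and 0.0967 TPM and in pNE_M at 756 and 625 TPM. SP5 was thus barely detected in any forebrain-medium library and abundant in every midbrain-medium library. On the log2(TPM + 1) scale it rose by 9.16 ± 0.40 (SE, limma, adjusted p = 1.92e-09) and 9.30 ± 0.40 (SE, limma, adjusted p = 2.23e-09).

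LEF1 was at 5.39 and 6.09 TPM in aNE_T and at 125 and 152 TPM in aNE_M. It was at 3.32 and 4.95 TPM in pNE_T and at 159 and 164 TPM in pNE_M. LEF1 levels in the midbrain medium were similar in size in both origins and the forebrain-medium libraries were all low. It rose by 4.37 ± 0.21 (SE, limma, adjusted p = 4.37e-09) in aNE-derived and by 5.004 ± 0.21 (SE, limma, adjusted p = 1.77e-09) in pNE-derived cells.

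TCF7 rose less. Its libraries were at 3.09 and 2.90 TPM in aNE_T and at 12.8 and 15.6 TPM in aNE_M. They were at 7.66 and 7.58 TPM in pNE_T and at 27.9 and 25.4 TPM in pNE_M. TCF7 was higher in the pNE-derived than in the aNE-derived libraries of both media, and the groups did not overlap. The rise was 1.92 ± 0.16 (SE, limma, adjusted p = 1.06e-06) in aNE-derived and 1.68 ± 0.16 (SE, limma, adjusted p = 4.7e-06) in pNE-derived cells.

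At the cell surface, NOTUM was below 1 TPM in every library of hPSC, day 2 and forebrain medium. It reached 22.4 and 17.2 TPM in aNE_M, against 0 and 0.303 TPM in aNE_T. In pNE_M it reached 33.4 and 28.1 TPM, against 0.301 and 0.132 TPM in pNE_T. NOTUM differed by 4.18 ± 0.24 (SE, limma, adjusted p = 2.9e-08) and 4.71 ± 0.24 (SE, limma, adjusted p = 1.25e-08).

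RNF43 and ZNRF3 are related ubiquitin ligases with a shared target, the Frizzled receptors. RNF43 was at 0.583 and 0.307 TPM in aNE_T and at 2.94 and 2.61 TPM in aNE_M. In pNE-derived cells it went from 0.351 and 0.347 TPM to 13.6 and 15.3 TPM. RNF43 was low in all forebrain-medium libraries, and its pNE_M libraries were the highest of the 18. Its rise was 1.39 ± 0.18 (SE, limma, adjusted p = 6.2e-05) in aNE-derived and 3.51 ± 0.18 (SE, limma, adjusted p = 1.27e-08) in pNE-derived cells.

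ZNRF3 was expressed in every library, at 5.74 TPM or more. It was at 6.76 and 5.74 TPM in aNE_T and at 23.9 and 24.4 TPM in aNE_M. It was at 9.87 and 8.79 TPM in pNE_T and at 28.2 and 27.8 TPM in pNE_M. ZNRF3 thus started from a higher level than RNF43 and rose in both origins, by 1.80 ± 0.13 (SE, limma, adjusted p = 1.8e-07) and 1.49 ± 0.13 (SE, limma, adjusted p = 1.38e-06). The share of RNF43 in the summed TPM of the 2 ligases was 3.33% to 6.52% on average in the hPSC, day-2 and forebrain-medium groups. It was 10.3% ± 0.89 (SD, n = 2) in aNE_M, 34.0% ± 2.0 in pNE_M, 30.8% ± 2.0 in aNE_H and 28.8% ± 1.9 in pNE_H.

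LGR5 was at or below 2.999 TPM throughout. It was at 0.113 and 0 TPM in aNE_M and 0.652 and 0.646 TPM in aNE_T, and at 2.65 and 2.999 TPM in pNE_M and 0.0662 and 0.188 TPM in pNE_T. The pNE_M libraries were thus alone above 1 TPM, and both aNE_M libraries were below both aNE_T libraries. The difference was 1.76 ± 0.17 (SE, limma, adjusted p = 6e-06) in pNE-derived cells, which passed, and -0.64 ± 0.17 (SE, limma, adjusted p = 0.0123) in aNE-derived cells, which was too small to be called. With a pseudocount of 0.1 the latter was -2.36 and was called.

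**Figure D2:**
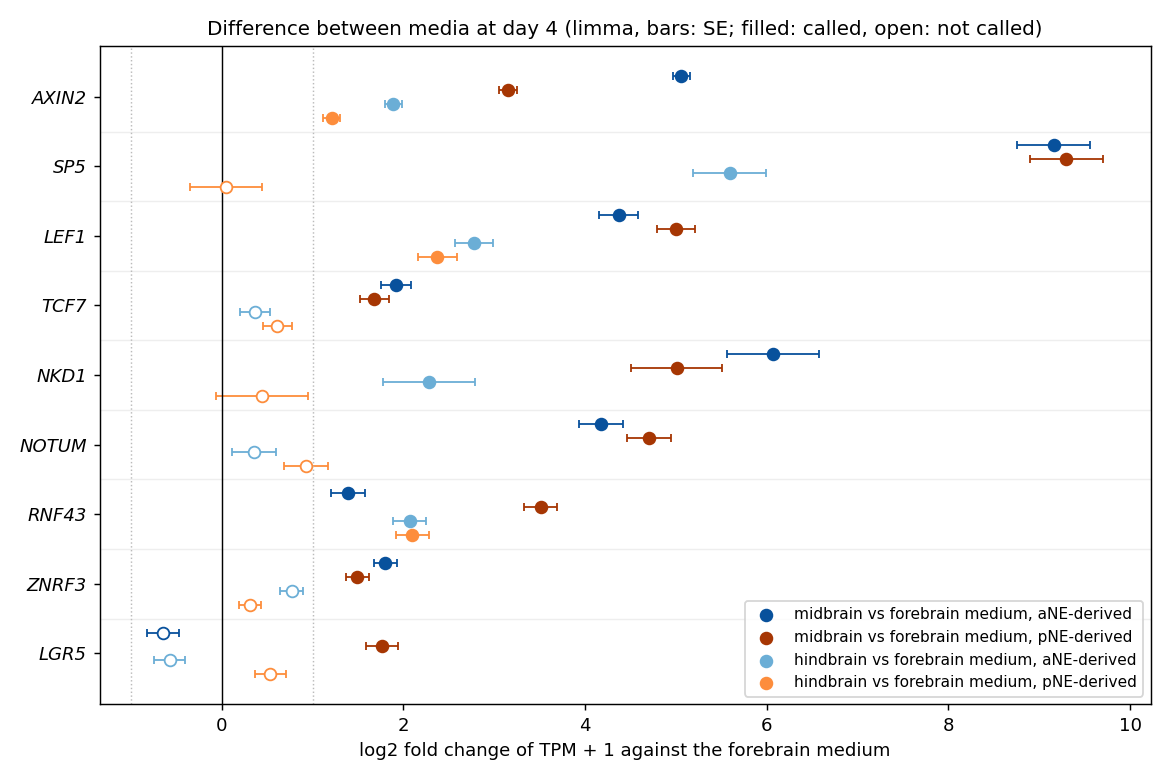
Log2 fold change of each gene on the log2(TPM + 1) scale, midbrain and hindbrain medium against forebrain medium, for aNE-derived and pNE-derived cells. Points are limma estimates, filled where called and open where not, and bars their SE. Both comparisons of an origin share its forebrain-medium libraries. SP5 has the largest midbrain-medium differences, 9.16 and 9.30, and its hindbrain-medium differences are 5.59 in aNE-derived and 0.05 in pNE-derived cells.

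Markers of other cell types moved with the midbrain medium too. Of the 8 mesendoderm and mesoderm markers, whose sum was 6.08 to 6.18 TPM in aNE_T and 95.6 to 113.6 TPM in aNE_M, MIXL1 was at 86.5 TPM and EOMES at 16.5 TPM on average in aNE_M, while GSC, SOX17, MESP1, TBX6, MSGN1 and FOXA2 were under 1 TPM. The same sum was 6.28 to 7.72 TPM in pNE_T and 11.95 to 13.8 TPM in pNE_M. The 8 caudal progenitor markers summed to 31.6 to 32.0 TPM in pNE_T and 397 to 435 TPM in pNE_M. Most of that rise was CDX1, at 126.9 and 98.6 TPM in pNE_M, and CDX2, at 246.6 and 251.8 TPM. These genes are also among the other WNT-responsive genes counted below. NKX1-2, HES7 and CDX4 were higher in pNE_M too, while FGF8 was lower and the CYP26A1 libraries of the groups overlapped. TBXT, the defining gene of the primitive streak and tail bud, was higher but at only 1.57 TPM on average in pNE_M. In aNE-derived cells the caudal sum went the other way, from 70.7 to 82.9 TPM in aNE_T to 21.9 to 25.6 TPM in aNE_M. Most of this fall was FGF8, at 71.2 TPM on average in aNE_T and 2.46 TPM in aNE_M. CYP26A1 and CDX4 were also lower in aNE_M, while TBXT, CDX1, CDX2, NKX1-2 and HES7 were higher. The 8 neural crest markers summed to 89.0 to 91.1 TPM in aNE_T, 181 to 198 TPM in aNE_M, 40.1 to 43.2 TPM in pNE_T and 135 to 143 TPM in pNE_M. The rise in aNE_M was PAX3, from 1.08 TPM on average in aNE_T to 125 TPM. SOX10, SNAI2, ETS1 and SOX9 were lower in aNE_M, and FOXD3, TFAP2A and TFAP2B were higher but at 3.37 TPM or less on average. In pNE_M ETS1 was lower than in pNE_T and the others were higher, with PAX3 at 41.0 TPM and SOX9 at 56.8 TPM on average. Surface ectoderm markers (8 genes) summed to 644 to 650 TPM in aNE_T, 922 to 983 TPM in aNE_M, 1236 to 1358 TPM in pNE_T and 2062 to 2121 TPM in pNE_M. Most of each sum was KRT8 and KRT18, and the sum was 730 to 746 TPM in hPSC. DLX5 fell from 62.5 TPM on average in aNE_T to 7.87 TPM in aNE_M and from 27.8 TPM in pNE_T to 7.67 TPM in pNE_M. GATA3 was also lower in the midbrain medium, and TP63, KRT5 and GATA2 were under 1 TPM in these groups. The 8 neural ectoderm markers had lower sums in the midbrain medium, from 2223 to 2269 TPM in aNE_T to 1240 to 1372 TPM in aNE_M, and from 1843 to 1941 TPM in pNE_T to 1320 to 1333 TPM in pNE_M. LIN28A was most of the midbrain-medium sums and went the other way. It averaged 713 TPM in aNE_T and 828 TPM in aNE_M, and 766 TPM in pNE_T and 889 TPM in pNE_M. SOX2, SOX3, PAX6, NES and CDH2 were lower in both origins. The part of these cell types in the WNT target levels was not tested. The 7 midbrain markers summed to 345.9 to 354.5 TPM in aNE_M and to 38.8 to 40.2 TPM in pNE_M, where EN1 was listed at 0 in both libraries.

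In the hindbrain medium fewer members were called than in the midbrain medium. Against the forebrain medium, 5 of 9 members were called higher in aNE_H, namely AXIN2, SP5, LEF1, NKD1 and RNF43, where 1.78% of all tested genes were. In pNE_H 3 of 9 were called higher, AXIN2, LEF1 and RNF43, where 1.65% were. These comparisons share the forebrain-medium libraries with those of the midbrain medium. RNF43 entered the test only through the midbrain and hindbrain media, where it was high, so its calls add nothing to these counts. Higher calls made up 26.9% of all calls in aNE_H, and 40.5% under quantile normalization, which changed none of the 5 member calls. The members' median difference, which took in RNF43, NOTUM and LGR5, was 1.89 in aNE-derived and 0.61 in pNE-derived cells. For all tested genes it was -0.07 and -0.04.

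SP5 showed the sharpest split. It was at 68.6 and 33.3 TPM in aNE_H, against at most 0.0243 TPM in aNE_T, and at 0.171 and 0.0905 TPM in pNE_H, against 0.0895 and 0.0967 TPM in pNE_T. Both aNE_H libraries were thus above every other library outside the midbrain medium, and the pNE_H libraries overlapped those of pNE_T. The difference was 5.59 ± 0.40 (SE, limma, adjusted p = 6.23e-07) in aNE-derived and 0.05 ± 0.40 (SE, limma, adjusted p = 0.978) in pNE-derived cells.

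AXIN2 and LEF1 rose in both origins in this medium. AXIN2 was at 35.1 and 32.8 TPM in aNE_H and at 73.3 and 66.2 TPM in pNE_H, and its changes were 1.89 ± 0.09 and 1.21 ± 0.09 (SE, limma, adjusted p = 2.56e-08 and 1.88e-06). LEF1 was at 45.2 and 44.9 TPM in aNE_H and at 26.7 and 24.0 TPM in pNE_H, and its changes were 2.77 ± 0.21 and 2.38 ± 0.21 (SE, limma, adjusted p = 1e-06 and 4.94e-06). The order of the origins was therefore opposite for these 2 genes: AXIN2 was higher in pNE_H and LEF1 in aNE_H, where the LEF1 origin difference of -0.81 was too small to be called.

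RNF43 was at 5.11 and 4.96 TPM in aNE_H and at 4.60 and 4.94 TPM in pNE_H. It was called in both origins, by 2.07 ± 0.18 and 2.10 ± 0.18 (SE, limma, adjusted p = 3.73e-06 and 4.31e-06). In aNE-derived cells RNF43 did not peak in the midbrain medium, since both aNE_H libraries were above both aNE_M libraries, and neither did LGR5, which was highest in aNE_T. The RNF43 difference of 0.68 ± 0.18 (SE, limma, adjusted p = 0.0244) was too small to be called.

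NKD1 was at 20.0 and 14.1 TPM in aNE_H and at 6.70 and 4.09 TPM in pNE_H. It was called in aNE-derived cells, by 2.28 ± 0.50 (SE, limma, adjusted p = 0.00456), and not in pNE-derived cells, with 0.44 ± 0.50 (adjusted p = 0.623). The call was lost without aNE_T replicate 2 (1.76, adjusted p = 0.0586) and when the 4 libraries were fitted alone (adjusted p = 0.0669), and its adjusted p ranged from 0.00169 to 0.0669 over 12 alternatives.

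The remaining members were not called in either origin against the forebrain medium. TCF7 was at 4.75 and 3.60 TPM in aNE_H and at 12.3 and 12.1 TPM in pNE_H, and ZNRF3 at 12.3 and 10.4 TPM and at 12.2 and 11.5 TPM. NOTUM was at 0.467 and 0.451 TPM in aNE_H and at 1.81 and 0.900 TPM in pNE_H, a difference of 0.93 from pNE_T (limma, adjusted p = 0.0176) that missed the size threshold. It was called without pNE_T replicate 1 (1.03), without pNE_H replicate 2 (1.21) and with a pseudocount of 0.1 (2.18). LGR5 was at 0.114 and 0.101 TPM in aNE_H and at 0.727 and 0.544 TPM in pNE_H.

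Set against the midbrain medium directly, 7 of 9 members were called lower in aNE_H, where 2.65% of all tested genes were, and 9 of 9 in pNE_H, where 2.99% were. LGR5 and NOTUM were tested only because they were high in the midbrain medium, so their calls add nothing to these counts. In aNE-derived cells the falls ranged from 1.03 for ZNRF3 to 3.82 for NOTUM, and RNF43 and LGR5 were not called. In pNE-derived cells SP5 fell by 9.25, NKD1 by 4.56 and TCF7, the least, by 1.07 on the log2 scale. The ZNRF3 fall in aNE-derived cells was 0.92 without aNE_H replicate 2 and 0.96 under quantile normalization, below the size threshold. Fitting the compared libraries alone left 4 of the 7 calls, losing SP5, TCF7 and ZNRF3.

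Marker sums of the same cell types were also taken in the hindbrain medium. The 8 mesendoderm and mesoderm markers summed to 5.72 to 7.67 TPM in aNE_H and 5.66 to 7.84 TPM in pNE_H, close to the forebrain medium. The 8 neural crest markers summed to 201 to 219 TPM in aNE_H and 84.4 to 89.7 TPM in pNE_H, and the 8 surface ectoderm markers to 1349 to 1451 TPM and 1500 to 1703 TPM. The surface ectoderm sums were again mostly KRT8 and KRT18. DLX5 was lower than in the forebrain medium, at 45.4 TPM on average in aNE_H and 11.1 TPM in pNE_H, while GATA3 was higher in pNE_H. The 8 neural ectoderm markers, at 1621 to 1747 TPM in aNE_H and 1378 to 1477 TPM in pNE_H, had lower sums than in the forebrain medium. LIN28A was again most of these sums and was higher than in the forebrain medium, at 1154 TPM on average in aNE_H and 952 TPM in pNE_H. The 8 caudal progenitor markers summed to 11.6 to 15.3 TPM in aNE_H, below aNE_T, and to 36.9 to 44.7 TPM in pNE_H. FGF8 made up most of the fall from aNE_T, at 71.2 TPM on average there and 7.60 TPM in aNE_H, while NKX1-2 and HES7 were higher on average in aNE_H. The part of these cell types in the member levels was not tested. The 7 hindbrain markers summed to 94.0 to 100.0 TPM in aNE_H, 825 to 959 TPM in pNE_H and 568 to 606 TPM in pNE_T, so the markers of the label were lower in aNE_H than in pNE-derived cells of the forebrain medium.

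**Figure D3:**
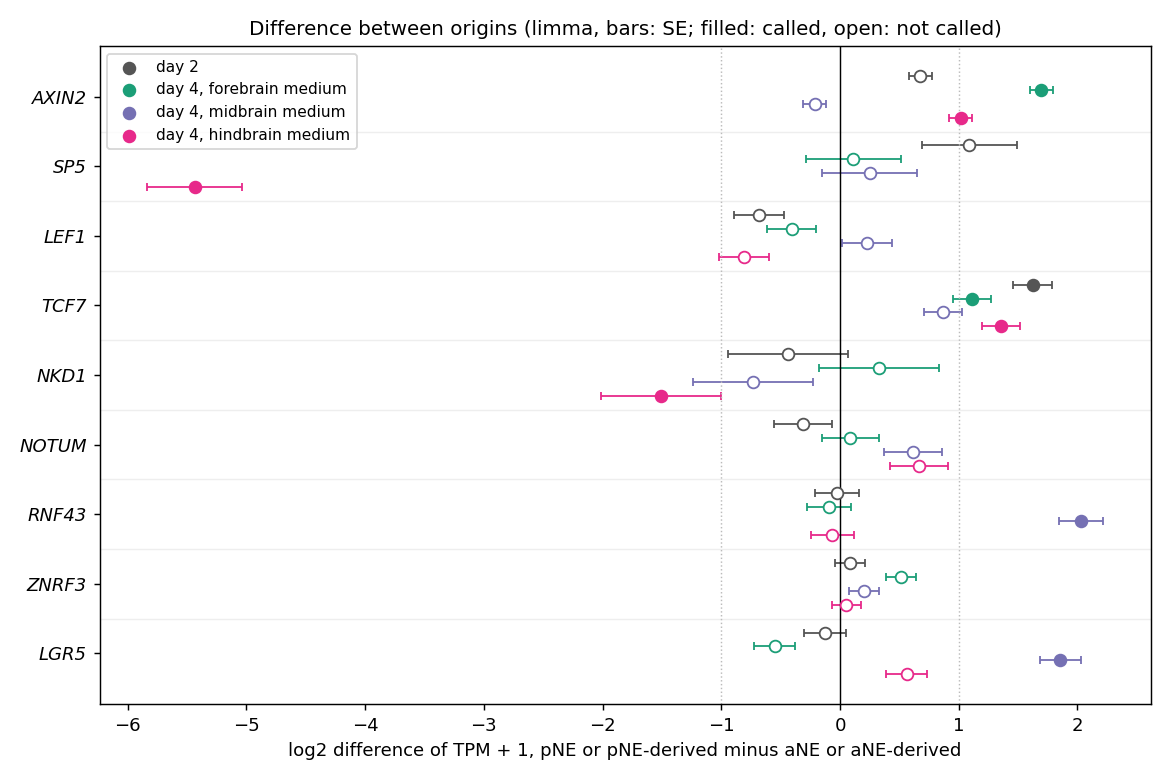
Log2 fold change of each gene on the log2(TPM + 1) scale, pNE against aNE at day 2 and pNE-derived against aNE-derived cells at day 4 in each medium, with limma estimates as points, filled where called and open where not, and SE as bars. TCF7 lies above 0 at every stage, and SP5 is near 0 in the forebrain and midbrain media and at -5.43 in the hindbrain medium.

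Origins were compared in each medium to ask whether the day-2 identity still showed in the WNT target genes. At day 2, TCF7 was the 1 member called between pNE and aNE, beside 3.85% of all tested genes. It was at 14.7 and 18.7 TPM in pNE and at 5.55 and 3.98 TPM in aNE. The groups were apart, and the difference was 1.62 ± 0.16 (SE, limma, adjusted p = 1.73e-05). Fitting these 4 libraries alone ended the call (limma, adjusted p = 0.0673, range 4.05e-06 to 0.0673 over 12 alternatives).

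SP5 was at 2.47 and 8.76 TPM in pNE and at 1.44 and 2.08 TPM in aNE. Its pNE replicates were further apart than the origins, and the difference of 1.09 ± 0.40 (SE, limma, adjusted p = 0.0987) did not pass. Without pNE replicate 1 it was 1.83 and was called. AXIN2 was at 9.45 and 10.6 TPM in pNE and at 6.27 and 5.55 TPM in aNE, a difference of 0.68 that was too small to be called, although the libraries did not overlap.

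At day 4, TCF7 stayed higher in pNE-derived libraries in all 3 media. The difference was 1.11 ± 0.16 in the forebrain medium and 1.36 ± 0.16 in the hindbrain medium (SE, limma, adjusted p = 0.000223 and 4.41e-05), both called. It was 0.87 ± 0.16 (SE, limma, adjusted p = 0.00203) in the midbrain medium, not called, and 1.00 without aNE_M replicate 2, then called. Both pNE-derived libraries were above both aNE-derived libraries in each medium.

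In the forebrain medium 2 of 9 members differed by origin, beside 7.77% of all tested genes. AXIN2 was 1.70 ± 0.09 (SE, limma, adjusted p = 2.98e-08) higher in pNE_T, and TCF7 was the other. The remaining 7 members had differences between -0.55 and 0.51. For SP5 the 95% interval of the difference ran from -0.76 to 0.98.

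In the midbrain medium 2 of 9 differed, RNF43 and LGR5, beside 5.74% of all tested genes. LGR5 passed the filter only through pNE_M, so its call adds nothing to the count. ZNRF3, the ligase related to RNF43, was not called, at 28.0 TPM on average in pNE_M and 24.2 TPM in aNE_M. RNF43 was 2.03 ± 0.18 (SE, limma, adjusted p = 4.19e-06) and LGR5 1.86 ± 0.17 (SE, limma, adjusted p = 6.2e-06) higher in pNE_M. AXIN2 differed by -0.21, with a 95% interval from -0.42 to -0.01, and LEF1 by 0.23, from -0.23 to 0.68. For SP5 the difference was 0.25, from -0.62 to 1.12, and for NKD1 -0.73, from -1.83 to 0.36, so these intervals leave room for differences past the size threshold. Only LGR5 was lost without either pNE_M library, because it then failed the filter.

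In the hindbrain medium 4 of 9 differed, beside 6.83% of all tested genes. SP5 was lower in pNE_H by a log2 difference of -5.43 ± 0.40 (SE, limma, adjusted p = 5.02e-07). AXIN2 was higher by 1.02 ± 0.09 (SE, limma, adjusted p = 4.83e-06), a value at the threshold that was 0.97 without aNE_H replicate 2 and 0.94 without pNE_H replicate 1. TCF7 was higher, as given above. NKD1 was lower, at -1.51 ± 0.50 (SE, limma, adjusted p = 0.0491), and lost its call without any of the 4 libraries, aNE_H replicate 1 or 2 or pNE_H replicate 1 or 2, with adjusted p from 0.0223 to 0.234 over 12 alternatives. TCF7 missed the threshold when the 4 libraries were fitted alone (adjusted p = 0.0525, range 1.1e-05 to 0.0525 over 12 alternatives).

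Whether the medium acted differently on the 2 origins was tested as an interaction. For midbrain against forebrain medium 3 of 9 members were called, beside 7.63% of all tested genes: AXIN2 rose less in pNE-derived cells, by -1.91 ± 0.13, and RNF43 and LGR5 rose more, by 2.12 ± 0.26 and 2.41 ± 0.25 (SE, limma). The origin difference of AXIN2, pNE-derived minus aNE-derived, was 1.70 in the forebrain medium and -0.21 in the midbrain medium. For hindbrain against forebrain medium 2 of 9 were called, beside 5.37% of all tested genes, SP5 at -5.55 ± 0.57 and LGR5 at 1.11 ± 0.25. For hindbrain against midbrain medium 5 of 9 were called, beside 6.99%, with SP5 at -5.68 ± 0.57, RNF43 at -2.10 ± 0.26, LGR5 at -1.30 ± 0.25, LEF1 at -1.03 ± 0.30 and AXIN2 at 1.23 ± 0.13. LGR5 passed the filter only through the pNE_M libraries and was not tested without either of them, so its calls add nothing to the counts that involve the midbrain medium. For NKD1, ZNRF3, TCF7 and NOTUM 0 of the 3 interactions were called by limma. At an unadjusted p under 0.05 there was 1 each for NKD1 and ZNRF3 and 0 each for TCF7 and NOTUM.

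The entry into neural ectoderm moved the members in mixed directions. Of the 9, 3 were called in aNE against hPSC, beside 13.5% of all tested genes, and 4 in pNE, beside 12.9%. AXIN2 was at 23.4 and 22.5 TPM in hPSC and fell by 1.80 ± 0.09 in aNE and by 1.12 ± 0.09 in pNE (SE, limma, adjusted p = 1.31e-08 and 1.19e-06). ZNRF3 was at 14.3 and 13.9 TPM in hPSC, above every day-2 library, with differences of -0.75 and -0.67 that were too small to be called. These comparisons share the hPSC libraries.

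LEF1 went the other way. It was at 1.22 and 0.594 TPM in hPSC, 4.14 and 6.31 TPM in aNE and 3.34 and 2.37 TPM in pNE. Both day-2 groups were above hPSC, and the differences were 1.70 ± 0.21 and 1.02 ± 0.21 (SE, limma, adjusted p = 3.14e-05 and 0.00186). The pNE value fell below the size threshold without hPSC replicate 2 (0.78), without pNE replicate 1 (0.84), under median-ratio scaling (0.97) and under quantile normalization (0.91), and missed the p threshold when the 4 libraries were fitted alone (adjusted p = 0.0751).

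TCF7 was at 7.08 and 7.23 TPM in hPSC and was higher in pNE by 1.11 ± 0.16 (SE, limma, adjusted p = 0.000139), or 0.95 and not called without pNE replicate 2. SP5 was at 0.341 and 0.203 TPM in hPSC and was higher in aNE by 1.11 ± 0.40 and in pNE by 2.20 ± 0.40 (SE, limma, adjusted p = 0.0412 and 0.000794). The aNE call was lost without any of its 4 libraries, hPSC replicate 1 or 2 or aNE replicate 1 or 2 (adjusted p = 0.075 to 0.18), and its adjusted p ranged from 0.00233 to 0.18 over 12 alternatives. The pNE call was lost when the 4 libraries were fitted alone (adjusted p = 0.0869, range 4.94e-05 to 0.0869 over 12 alternatives), and the difference was 1.45 without pNE replicate 2. NKD1 replicates in hPSC were at 7.91 and 1.25 TPM. Without hPSC replicate 2, NKD1 was called lower in aNE (-1.14) and in pNE (-1.57), whereas with both libraries the differences of -0.14 and -0.58 did not pass. Without hPSC replicate 1 they were 0.85 and 0.41, of the opposite sign and not called.

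From day 2 to day 4 in the forebrain medium SP5 fell in both origins, by 1.44 ± 0.40 in aNE-derived and 2.41 ± 0.40 in pNE-derived cells (SE, limma, adjusted p = 0.0153 and 0.000453). It was the 1 member of 9 called in aNE_T, beside 9.03% of all tested genes, and the call was lost without aNE replicate 2 (adjusted p = 0.0981), aNE_T replicate 1 (0.0612) or aNE_T replicate 2 (0.071), in a range of 4.78e-05 to 0.0981 over 12 alternatives. In pNE_T 3 of 9 were called, beside 10.2%: AXIN2 rose by 1.47 ± 0.09 (SE, limma, adjusted p = 1.17e-07), while SP5 and TCF7 fell. The SP5 call in pNE_T was lost when the 4 libraries were fitted alone (adjusted p = 0.083, range 1.38e-05 to 0.083 over 12 alternatives). The TCF7 fall of 1.03 was 0.86 without pNE replicate 2 and 0.99 under median-ratio scaling, both too small to be called. AXIN2 therefore rose in pNE-derived cells in the forebrain medium, and in aNE-derived cells its change was 0.45 ± 0.09, too small to be called. The difference between these 2 changes was not tested.

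Against day 2, 8 of 9 members were called higher in aNE_M, beside 4.34% of all tested genes, and 8 in pNE_M, beside 4.87%. LGR5 in aNE_M and TCF7 in pNE_M, at 0.65 ± 0.16 (SE, limma, adjusted p = 0.00669), were the exceptions. LGR5 and NOTUM again add nothing to these counts, since they entered the test through these groups. RNF43 entered the test only through the midbrain and hindbrain media, so its calls against day 2 add nothing either. In the hindbrain medium 5 were called higher in aNE_H, beside 3.24%, namely AXIN2, SP5, LEF1, NKD1 and RNF43. NKD1 lost that call without aNE replicate 1 (1.89, adjusted p = 0.0514, range 0.00217 to 0.0514 over 12 alternatives). In pNE_H 5 were called, beside 12.3% in either direction, of which AXIN2, LEF1, NOTUM and RNF43 rose and SP5 fell by 2.37 ± 0.40 (SE, limma, adjusted p = 0.00045). Fitting the 4 libraries of pNE_H and pNE alone ended the calls of SP5 (adjusted p = 0.0783, range 1.63e-05 to 0.0783 over 12 alternatives) and NOTUM (0.0645). SP5 thus rose 4.16 from day 2 in aNE-derived and fell in pNE-derived cells in the same medium, and the difference between these 2 changes from day 2 was not tested. NOTUM in pNE_H was 1.06 higher and also lost the call without pNE_H replicate 1 (0.78). Among all genes called against day 2, 32.2% were higher in aNE_H and 36.4% in pNE_H, and under quantile normalization 43.3% and 46.9% were.

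The order of mean levels over the 9 groups differed by gene. For AXIN2 it was aNE_M, pNE_M, pNE_H, aNE_H, pNE_T, hPSC, pNE, aNE_T and aNE from 313 to 5.91 TPM, and the libraries of every pair of neighbours were apart. For SP5 it was pNE_M, aNE_M, aNE_H, pNE, aNE, hPSC, pNE_H, pNE_T and aNE_T from 690 to 0.0121 TPM, with overlap between pNE_M and aNE_M and between pNE_H and pNE_T. LEF1 ran pNE_M, aNE_M, aNE_H and pNE_H from 162 to 25.4 TPM, then aNE_T, aNE, pNE_T and pNE, where each overlapped its neighbour, and hPSC last at 0.908 TPM. TCF7 ran pNE_M, pNE, aNE_M, pNE_H, pNE_T, hPSC, aNE, aNE_H and aNE_T from 26.6 to 2.996 TPM, with overlap between pNE and aNE_M and between aNE and aNE_H. NKD1 ran aNE_M, pNE_M and aNE_H from 246 to 17.1 TPM, and the 6 other groups, at 5.40 to 2.00 TPM, overlapped from neighbour to neighbour.

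NOTUM ran pNE_M, aNE_M and pNE_H from 30.8 to 1.36 TPM, and the 6 other groups, at 0.459 to 0.0952 TPM, overlapped from neighbour to neighbour. RNF43 ran pNE_M, aNE_H, pNE_H and aNE_M from 14.4 to 2.77 TPM, all apart, and the 5 other groups, at 0.529 to 0.349 TPM, overlapped. ZNRF3 ran pNE_M, aNE_M and hPSC from 28.0 to 14.1 TPM, then pNE_H and aNE_H, which overlapped, then pNE_T, pNE and aNE, which overlapped, and aNE_T last at 6.25 TPM. LGR5 ran pNE_M at 2.82 TPM, then aNE_T and pNE_H at 0.649 and 0.636 TPM, which overlapped, and then 6 groups at 0.139 to 0.0282 TPM, each of which overlapped its neighbour.

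Over the 18 libraries the members resembled each other to different degrees. Pearson's r of log2(TPM + 1) was highest for NKD1 with NOTUM (0.933), SP5 with NKD1 (0.926) and AXIN2 with ZNRF3 (0.921), and lowest for SP5 with LGR5 (0.383). Among all other tested genes with a mean of at least 5 TPM in a group, the most similar to AXIN2 were MAML3 (0.943), CYSTM1 (0.931) and EGFLAM (0.925). Those most like SP5 were TRABD2B (0.975), FZD10 (0.972) and SP6 (0.953), those most like NKD1 TMEM132C (0.958), TRABD2B (0.958) and DKK1 (0.957), and those most like LEF1 MSX2 (0.976), MSX1 (0.974) and PCDHGC4 (0.951). NOTUM was nearest to TTC29 (0.950), DKK1 (0.949) and EGFLAM (0.946). Of the rest, TCF7 was nearest to MCC (0.885), RNF43 to EIF3D (0.948), ZNRF3 to SLC27A4 (0.931) and LGR5 to COL3A1 (0.948). These values describe 9 groups of 2 libraries, which share the group means, and carry no test.

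**Figure D4:**
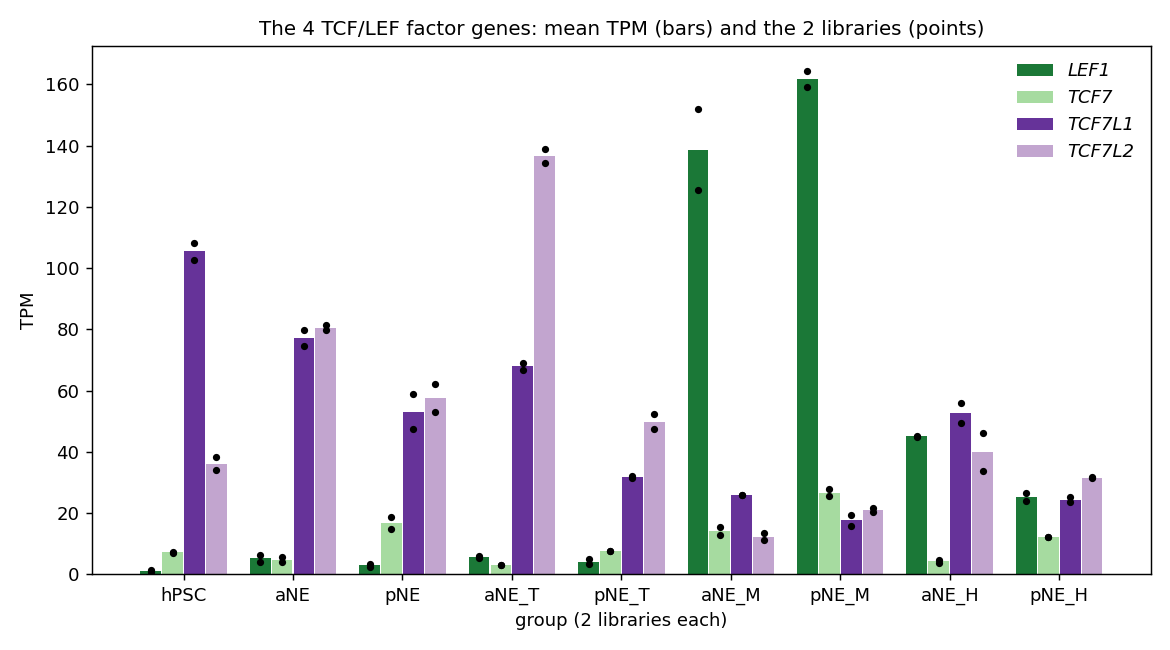
Level in TPM of LEF1, TCF7, TCF7L1 and TCF7L2, the 4 TCF/LEF genes, by group, with bars for the mean and points for the 2 libraries. LEF1 and TCF7 together make up 79.9% of the sum in aNE_M and 83.0% in pNE_M, against 4.10% in aNE_T and 12.6% in pNE_T.

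The make-up of the TCF/LEF family changed with the medium, as the plot of these genes by library shows. LEF1 and TCF7 held 4.10% ± 0.26 (SD, n = 2) of the summed TPM of the 4 family genes in aNE_T and 12.6% ± 0.62 in pNE_T. They held 79.9% ± 1.5 in aNE_M and 83.0% ± 1.4 in pNE_M, and 34.9% ± 2.8 and 40.2% ± 1.9 in aNE_H and pNE_H. The rest belonged to TCF7L1 and TCF7L2. TCF7L2 was at 139 and 134 TPM in aNE_T and at 11.1 and 13.3 TPM in aNE_M, a fall of 3.39 ± 0.13, and fell by 1.20 ± 0.13 in pNE-derived cells (SE, limma, adjusted p = 6.8e-10 and 1.57e-05). TCF7L1, known as a repressor of WNT targets in pluripotent cells, fell by 1.35 ± 0.11 (SE, limma, adjusted p = 7.55e-07) in aNE_M and was not called in pNE_M. The summed level of the 4 genes was 175 to 207 TPM in aNE_M and 210 to 216 TPM in aNE_T, so LEF1 and TCF7 made up a larger part of a total that was not larger. In pNE-derived cells the sum was 90.5 to 96.3 TPM in the forebrain medium and 226 to 228 TPM in the midbrain medium.

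Other genes of the pathway were counted from lists. Of 20 other WNT-responsive genes, 10 were called higher and 1 lower in aNE_M against aNE_T, with a median of 1.32, and 9 higher and 2 lower in pNE_M against pNE_T, with a median of 0.62. The share called in either direction among all tested genes was 10.1% and 8.60%. DKK4 reached 1 TPM only in aNE_M, CDX1 only in pNE_M and TBXT only in the midbrain medium. DKK1 reached it only in the midbrain medium and in aNE_H. These genes entered the test only because they were high in those groups, so any calls of them add nothing to the counts. The medians take them in as well. DKK1, a secreted inhibitor of LRP receptors, was listed at 0 in both aNE_T libraries and was at 387 and 459 TPM in aNE_M. It was at 0 and 0.112 TPM in pNE_T and at 91.8 and 97.6 TPM in pNE_M. MSX1, a homeobox factor of the dorsal neural tube, rose by 7.25 ± 0.20 and 7.72 ± 0.20 (SE, limma, adjusted p = 2.89e-11 and 3.22e-11). APCDD1, a membrane inhibitor of WNT ligands, rose by 6.87 in aNE_M and 4.04 in pNE_M.

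Not every gene of that list rose. MYC, a growth regulator and WNT target in other tissues, was at 54.4 and 55.6 TPM in aNE_T and at 8.06 and 5.29 TPM in aNE_M. It fell by 2.89 ± 0.21 in aNE-derived and by 1.36 ± 0.21 in pNE-derived cells (SE, limma, adjusted p = 3.02e-07 and 0.000325). BAMBI rose by 1.65 in aNE_M and fell by 1.92 in pNE_M. CDX1 and CDX2, caudal homeobox genes, rose by 6.60 ± 0.18 and 7.25 ± 0.25 in pNE_M (SE, limma, adjusted p = 4.9e-11 and 3.02e-10), and were at 1.76 TPM or less in every aNE_M library. Between the origins in the midbrain medium 11 of these 20 genes were called, beside 2 of the 9 members and 5.74% of all tested genes. CDX1 and CDX2 were higher and DKK4, APCDD1, WIF1 and DKK1 lower in pNE_M, by up to 3.66 on the log2 scale for DKK4. DKK4 passed the filter only through aNE_M, and CDX1 and the member LGR5 only through pNE_M. DKK1 passed it only through the midbrain medium and aNE_H. Their calls therefore add nothing to these counts.

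In the hindbrain medium 6 of the 20 were called higher and 2 lower in each origin, beside 6.60% and 5.03% of all tested genes in either direction. ASCL2 reached 1 TPM only in pNE_H and 1 library of hPSC, and DKK1 only in the midbrain medium and aNE_H. Any higher calls of these genes in those groups add nothing to the counts. MSX1 rose by 5.61 ± 0.20 in aNE_H and 3.66 ± 0.20 in pNE_H (SE, limma, adjusted p = 1.84e-09 and 1.1e-07). DKK1 was at 1.04 and 1.26 TPM in aNE_H and at 0.119 and 0.302 TPM in pNE_H, far from its midbrain-medium level.

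Among the 7 other SP family genes, relatives of SP5, 3 rose in the midbrain medium in both origins, beside 3.50% of all tested genes in aNE_M and 3.31% in pNE_M, and 1 in the hindbrain medium, beside 1.78% and 1.65%. SP6 was at 115 and 112 TPM in aNE_M and at 71.8 and 71.2 TPM in pNE_M, with rises of 5.94 ± 0.14 and 5.11 ± 0.14 over the forebrain medium (SE, limma, adjusted p = 6.05e-12 and 3.86e-11). SP7 rose by 3.50 and 1.94 and SP9 by 2.39 and 1.38. SP7 and SP9 were under 1 TPM in every library outside the midbrain medium. Both were tested only because they were high there, so their calls add nothing to the count. In the hindbrain medium SP6 was at 9.79 and 9.01 TPM in aNE_H and at 4.79 and 4.98 TPM in pNE_H. Its changes of 2.48 ± 0.14 and 1.49 ± 0.14 (SE, limma, adjusted p = 6.95e-08 and 7.44e-06) were called in both origins, where SP5 was called in aNE-derived cells alone.

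Of 15 intracellular and ligand-processing genes of the pathway, 1 was called in aNE_M, beside 10.1% of all tested genes in either direction, and 0 in pNE_M, beside 8.60%. The 1 gene was WLS, the carrier that brings WNT ligands to the cell surface. WLS was at 5.76 and 7.03 TPM in aNE_T and at 173 and 208 TPM in aNE_M, a rise of 4.69 ± 0.12 (SE, limma, adjusted p = 1.6e-11). In pNE-derived cells it was already at 162 and 139 TPM in the forebrain medium and was at 287 and 308 TPM in the midbrain medium, a difference of 0.98 ± 0.12 (SE, limma, adjusted p = 4.35e-05) just under the size threshold. The difference between these 2 changes was called, at -3.71 ± 0.17 (SE, limma, adjusted p = 2.33e-08). The summed level of the 15 genes was 1225 to 1271 TPM in aNE_T and 1367 to 1424 TPM in aNE_M. In aNE_H WLS rose by 5.08 ± 0.12 (SE, limma, adjusted p = 3.07e-11) and APC2, a relative of the scaffold APC, fell by 1.31, and in pNE_H 0 of 15 were called, beside 6.60% and 5.03% of all tested genes. Unadjusted limma p-values were under 0.05 for 10 of the 15 in pNE_M and 3 in pNE_H, and adjusted ones for 6 and 2, all with changes too small to be called.

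Of 10 co-receptors, R-spondins and sibling receptors, 9 were tested. LGR4, the relative of LGR5 that also binds R-spondins, was at 58.8 and 59.4 TPM in aNE_T and at 5.36 and 7.50 TPM in aNE_M. In pNE-derived cells it was at 44.7 and 45.4 TPM and at 6.51 and 7.18 TPM. LGR4 thus fell in the medium where most members rose, by 3.03 ± 0.11 and 2.55 ± 0.11 (SE, limma, adjusted p = 4.63e-10 and 3.11e-09). RSPO3, an R-spondin, fell by 1.64 and 2.20. In all, 1 gene was higher (KREMEN2, by 1.67) and 3 lower in aNE_M, and 0 were higher and 2 lower in pNE_M, beside 10.1% and 8.60% of all tested genes called in either direction.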

How the data were processed

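Poly-A RNA of 18 libraries was quantified by the authors, who deposited a table of TPM values. Per the submitters' processing notes, bcl2fastq, FastQC, Trim Galore, kallisto, deepTools and the build hg38 were used. The versions, the annotation and the summary to genes are not given in the sources used here. TPM sums to the same total in each library, so a large rise of some genes lowers the values of others.

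The test used log2(TPM + 1), a pseudocount of 1 that understates the fold change of low genes, and 17033 genes, those reaching 1 TPM in 2 or more libraries. A single limma model (version 3.58.1 in R 4.3.3) with a mean for each group took in all 18 libraries and left 9 residual degrees of freedom, with variances moderated along a trend. Two-sided p-values were corrected over all tested genes (Benjamini-Hochberg). The model was tested on simulated data. Of the 18 comparisons and 3 interactions, each gene's call needed an adjusted p under 0.05 and a change of at least 1. Named genes were the 9 members, up to 4 called genes of each list with the largest change, and the 3 most correlated genes of each member. Other values named (EN1, TBXT, WIF1, BAMBI, WNT1 and members of short counts) were chosen after their values were seen. The members, lists and tests were chosen with earlier results of these data known. Promoters were searched with Python 3.11.15.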

Additional observations from a re-analysis of the deposited data

Results flagged for a closer look

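The change between media differed between the origins, by limma's test of the difference itself, for 10 values of 5 genes. Each is the change of pNE-derived cells minus that of aNE-derived cells on the log2(TPM + 1) scale, and plating density differed between the origins. From forebrain to midbrain medium the difference was -1.91 ± 0.13 for AXIN2, 2.12 ± 0.26 for RNF43 and 2.41 ± 0.25 for LGR5 (SE, limma, adjusted p = 7.48e-07, 8.72e-05 and 2.07e-05). From forebrain to hindbrain medium it was -5.55 ± 0.57 for SP5 and 1.11 ± 0.25 for LGR5 (adjusted p = 4.32e-05 and 0.0107). From midbrain to hindbrain medium it was 1.23 ± 0.13 for AXIN2, -5.68 ± 0.57 for SP5, -1.03 ± 0.30 for LEF1, -2.10 ± 0.26 for RNF43 and -1.30 ± 0.25 for LGR5 (adjusted p = 4.26e-05, 2.1e-05, 0.0353, 0.000118 and 0.00331).

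Beside the SP5 values, its libraries were at 0.171 and 0.0905 TPM in pNE_H and at 68.6 and 33.3 TPM in aNE_H. The LEF1 value lost its call without 7 of the 8 libraries in turn, with a pseudocount of 0.1 and without a filter, with adjusted p from 0.0135 to 0.12 over 16 alternatives. LGR5 was above 1 TPM in the pNE_M libraries alone and was tested only because it was high there, so its values that involve the midbrain medium are a description. Its hindbrain against forebrain value was 0.97 under quantile normalization, too small to be called, and its hindbrain against midbrain value had an adjusted p of 0.0745 with a pseudocount of 0.1 (range 0.000127 to 0.0745 over 13 alternatives).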

How the results depend on the processing

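Of 97 member differences called, 0 changed sign under any alternative, while 27 of the 92 that were not called did under at least 1. A pseudocount of 0.1 moved 23 of the called differences by over 1.5 times, and the other alternatives moved 1, SP5 in pNE against hPSC. With a pseudocount of 0.1 the number of members called was 2 in place of 1 for aNE_T against aNE, and 3 in place of 5 for the interaction of hindbrain and midbrain media. A filter at 5 TPM gave 1 in place of 2 for pNE_M against aNE_M and for the interaction of hindbrain and forebrain media, since it leaves LGR5 out, and quantile normalization gave 1 for the latter. Fitting the compared libraries alone, with fewer degrees of freedom, gave 2 members in place of 4 for pNE against hPSC, 0 in place of 1 for pNE against aNE, 2 in place of 4 for pNE_H against aNE_H, 3 in place of 5 for pNE_H against pNE and 4 in place of 7 for aNE_H against aNE_M. Over all genes it gave 355 in place of 655 calls for pNE against aNE, 717 in place of 1164 for pNE_H against aNE_H, 373 in place of 838 for aNE_H against aNE_M and 473 in place of 857 for pNE_H against pNE_T. Calls by adjusted p alone gave 5 members in place of 3 for aNE against hPSC, 3 in place of 1 for pNE against aNE, 4 in place of 2 for pNE_T against aNE_T, 4 in place of 1 for aNE_T against aNE and 5 in place of 3 for pNE_H against pNE_T.

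Leaving out 1 library at a time gave 1 to 2 members for pNE against aNE, 1 to 3 for pNE_M against aNE_M, 2 to 3 in place of 4 for pNE_H against aNE_H, 0 to 1 for aNE_T against aNE and 3 to 5 for the interaction of hindbrain and midbrain media. The number for midbrain against forebrain medium was 8 without any library in aNE-derived cells and 8 to 9 in pNE-derived cells. Where a cause is not named, it was not tested.

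The replicate numbers do not pair the libraries: the deviations of same-numbered libraries had r from -0.0896 to 0.0762 over 36 pairs of groups. With the replicate number as a block, SP5 in aNE against hPSC was 1.11 (adjusted p = 0.0516), the 1 member call that the block ended. Depth is unknown, so no limit of detection can be given for values near 0.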

Other observations

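Of 19 WNT ligand genes 13 were tested, and several differed between the origins. WNT2B was at 47.6 and 59.2 TPM in pNE and at 8.37 and 8.08 TPM in aNE, and at 116 and 117 TPM in pNE_T and 1.82 and 2.59 TPM in aNE_T. It was called higher in pNE-derived cells at day 2 and in all 3 media, by 2.55, 5.20, 2.86 and 1.98 (limma, adjusted p = 1.19e-06, 6.56e-10, 2.5e-07 and 6.75e-06). WNT5A, a ligand best known for beta-catenin-independent signalling, was at 24.7 and 22.4 TPM in pNE_M and 5.91 and 5.82 TPM in aNE_M, and at 59.4 and 61.2 TPM in pNE_H and 4.78 and 3.62 TPM in aNE_H, with differences of 1.83 and 3.57 (limma, adjusted p = 4.36e-07 and 7.89e-10). WNT4 was the opposite, at 45.2 and 45.3 TPM in aNE_M and 1.63 and 0.872 TPM in pNE_M, a difference of -4.38 (limma, adjusted p = 1.48e-08). Against the forebrain medium, 2 ligands were called higher and 1 lower in aNE_M, and 3 higher and 1 lower in pNE_M, beside 10.1% and 8.60% of all tested genes in either direction. WNT8B reached 1 TPM only in aNE_M. WNT6 did so only in pNE_M and 1 library of aNE, and WNT11 only in the midbrain medium and 1 library of aNE_T. Any higher calls of these ligands in the midbrain medium therefore add nothing to the counts. WNT1, the ligand of the midbrain-hindbrain border, was at most 0.343 TPM in any library.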
